A study of Mus musculus with 6 samples.

Results

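The genes described are 10 neuronal migration genes of the lissencephaly and reelin pathways, Pafah1b1, Ndel1, Nde1, Dcx, Dclk1, Tuba1a, Ywhae, Vldlr, Lrp8 and Dab1, taken by gene name from a table of 38561 genes. All 10 were present in a single row each and all 10 passed the filter on low counts, so no gene of the set is missing from what follows. They were measured by RNA sequencing in 6 libraries of tdTomato-positive cells sorted from the telencephalon of mouse embryos at E11.5 (embryonic day). There were 2 heterozygous libraries (genotype Magoh lox/+; Nkx2.1-Cre; ROSAloxSTOPloxTdTomato) and 4 control libraries (Nkx2.1-Cre;ROSAloxSTOPloxTdTomato), all on C57BL/6. The Cre recombinase and the tdTomato reporter were thus carried by every library, and the groups differed by 1 floxed allele of Magoh, which encodes a subunit of the complex deposited on mRNAs at exon junctions after splicing. Because the Cre is driven by Nkx2.1, the reporter marks cells with a history of Nkx2-1 expression, among them those of the medial ganglionic eminence (MGE), a source of cortical interneurons in the ventral telencephalon. The labels do not say whether each library was a separate embryo, so the p-values measure the spread between these libraries.

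Newborn neurons move away from the germinal zone by extending a leading process and pulling the nucleus after it along microtubules. LIS1, the product of Pafah1b1, and its partners NDEL1 and NDE1 regulate the motor dynein, which pulls the nucleus. Doublecortin and its relatives stabilise the microtubules, which are built from tubulins such as TUBA1A, and 14-3-3 epsilon (Ywhae) protects phosphorylated NDEL1. Reelin, a secreted protein, binds the receptors VLDLR and APOER2 (the product of Lrp8) and acts through the adaptor DAB1. Mutations of LIS1, DCX or TUBA1A cause lissencephaly, a smooth cerebral cortex, in humans, and deletions that also remove YWHAE give a severe form.

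Library totals ran from 37429290 to 49189360 counts. Levels are given in CPM, reads relative to the library's total, scaled by TMM factors, and differences as log2 fold changes, heterozygous over control, from edgeR's quasi-likelihood test over 16495 genes. Magoh had 57.1 and 48.6 CPM in heterozygous libraries, below all 4 controls at 63.6 to 118 CPM, without passing the test (log2 fold change -0.62 ± 0.27, SE, edgeR adjusted p = 0.85), and its log2 fold change was -0.37 without control 2. All 9 fixed markers of the MGE lineage were detected, with Nkx2-1 at 349 and 466 CPM in heterozygous and 339 to 561 CPM in control libraries. Heterozygous library 1 and control 2 stood apart from the other 4 libraries, with 0 reads from 4 Y-linked genes against 3453 to 4291 in each of the others. In these same 2 libraries long transcripts were low relative to short ones. The median log2 deviation of transcripts of at least 8000 nt minus that of transcripts under 1000 nt was -0.35 in heterozygous library 1 and -0.71 in control 2, against 0.10 to 0.47 in the other 4. Sex and this length difference cannot be told apart. In bulk samples of this kind fewer cells of a type and less RNA per cell cannot be told apart either.

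None of the 10 migration genes passed the test between genotypes. In simulated counts of 2 against 4 libraries, edgeR recovered 18% of 2-fold and 81% of 4-fold changes. Not passing therefore does not show that a gene was level. The largest differences were in Dcx, Dclk1 and Tuba1a, each with a higher mean in heterozygous cells, and Nde1 had the largest negative difference. Over all tested genes edgeR called 0 (0%), with 944 at an unadjusted p under 0.05 (5.72%), and DESeq2 called 75 (0.455%). Of the 10 genes, 0 had an unadjusted p under 0.05 and DESeq2 called 0. For 7 of them the log2 fold change was above 0, with a median of 0.08, against 46.1% of all tested genes and a median of -0.03. The median of the 10 was 0.22 without heterozygous library 1, 0.14 without heterozygous library 2, 0.16 without control 2 and 0.03 without control 4. Both heterozygous libraries lay above every control for 2 of the 10, Ndel1 and Dcx, where this held for 6.17% of all tested genes, and below every control for 0, where it held for 8.14%. Without control 2 these counts were 4 above and 2 below, where 15.9% and 19.4% of all tested genes were so placed. Without heterozygous library 1 they were 5 above and 0 below, where 19.9% and 23.4% of all tested genes were.

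**Figure D1:**
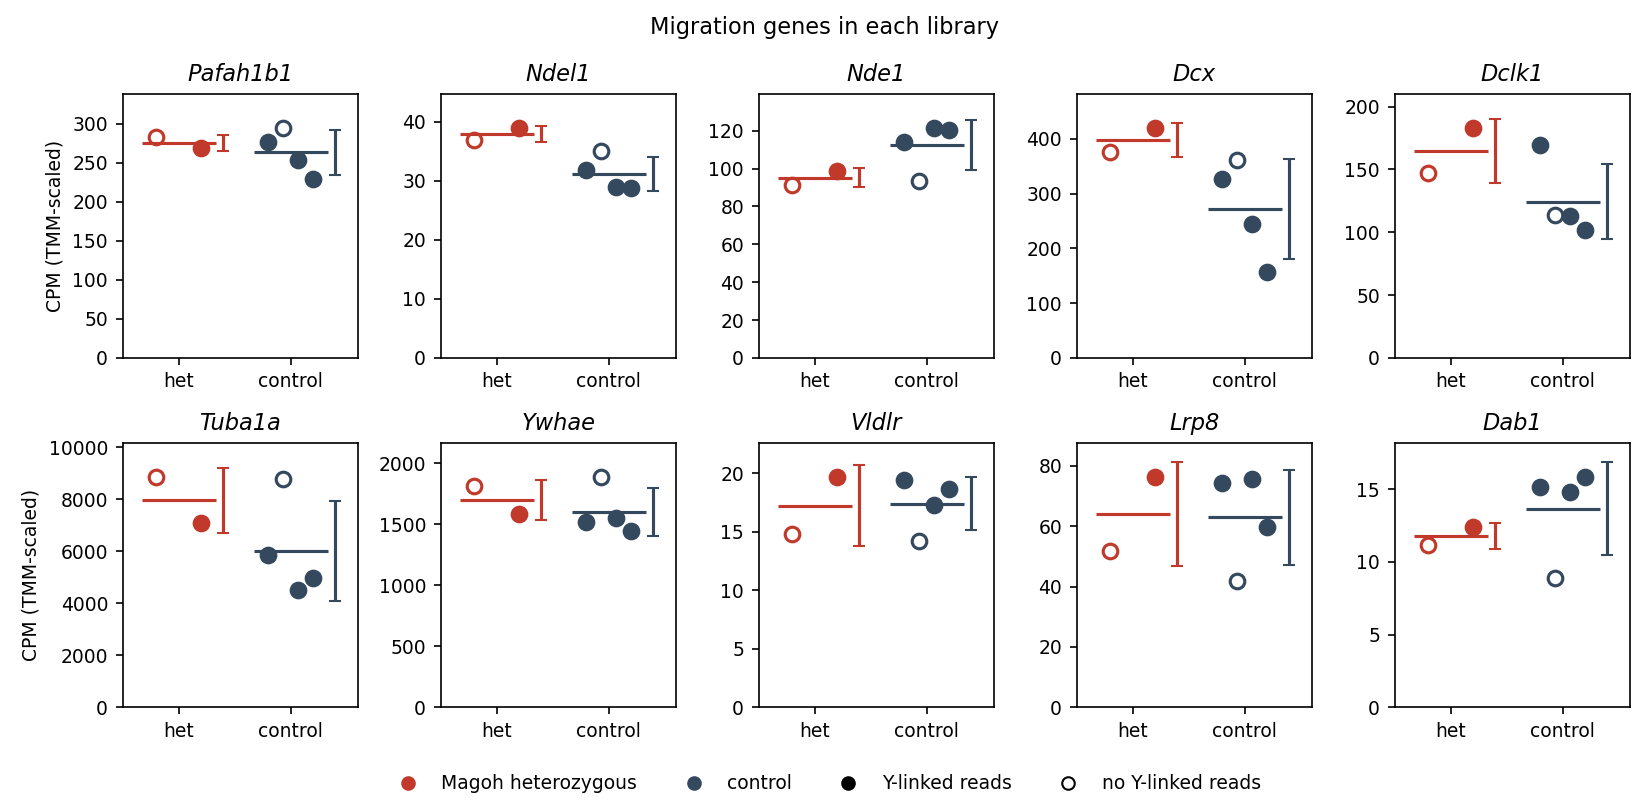
Level of each of the 10 genes in every library, in TMM-scaled CPM (linear axes from 0). Red points are heterozygous and blue points control libraries, open points mark the 2 libraries without Y-linked reads, horizontal lines are group means and bars are ± 1 SD. Only Ndel1 and Dcx show both heterozygous libraries above all 4 controls.

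Of the LIS1 and dynein genes, Pafah1b1 (chromosome 11, 74673949 to 74724670, minus strand, GRCm38), whose product LIS1 binds the dynein motor, was nearly level between the groups. It stood at 283 and 269 CPM in heterozygous libraries 1 and 2, against 277, 295, 253 and 229 CPM in controls 1 to 4. Both heterozygous values lay inside the control range, and the log2 fold change was 0.07 ± 0.17 (SE, edgeR adjusted p = 0.999).

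Ndel1 and Nde1 are paralogs, and both proteins hold LIS1 on dynein. Nde1 acts chiefly in dividing progenitors and Ndel1 in neurons. Ndel1 (chromosome 11, 68821434 to 68871858, minus strand) stood at 37.0 and 38.9 CPM in heterozygous libraries, against 31.9, 35.01, 29.0 and 28.8 CPM in controls. Both heterozygous libraries were above the highest control, at a log2 fold change of 0.28 ± 0.16 (SE, edgeR unadjusted p = 0.118, adjusted p = 0.907). Heterozygous library 1 was 0.08 log2 units above control 2, the highest control, while heterozygous library 2 was 0.38 above the mean of controls 1, 3 and 4.

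Nde1 (chromosome 16, 14163275 to 14192928, plus strand) had the opposite sign. It stood at 91.5 and 98.8 CPM in heterozygous libraries, against 114, 93.3, 121 and 120.4 CPM in controls. The heterozygous libraries were low, but control 2 lay between them. The log2 fold change was -0.24 ± 0.17 (SE, edgeR adjusted p = 0.961), and the difference was -0.03 between heterozygous library 1 and control 2 and -0.26 between heterozygous library 2 and controls 1, 3 and 4. Nde1 overlaps Marf1 on the opposite strand (mean 82.0 CPM over the libraries), and since no source used here says whether counting was by strand, reads of the overlap may belong to either gene.

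Within a library, the ratio of Ndel1 to Nde1 counts does not depend on the scaling between libraries. It was 0.404 and 0.394 in heterozygous libraries, against 0.279, 0.375, 0.239 and 0.239 in controls. Both heterozygous ratios were above all 4 control ratios, the nearest being control 2. It is one of 4 such ratios computed, chosen with the levels in view, so no test is given. The groups overlapped for Dcx over Dclk1, at 2.56 and 2.30 in heterozygous and 1.53 to 3.18 in control libraries. They also overlapped for Lrp8 over Vldlr, at 3.51 and 3.88 in heterozygous and 2.94 to 4.37 in control libraries. The exon lengths of the pair, 3253 nt for Ndel1 and 3205 nt for Nde1, are close.

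The promoters of Ndel1, Nde1 and Dcx are shown because these are the paralogs with opposite signs and the 2 genes whose heterozygous libraries lay above every control. Each is the part outside annotated exons of the 250 bases before the first-listed RefSeq start (GRCm38.p6, read 5′ to 3′ on the gene's strand), and capitals mark matches to the E-box CANNTG, the general form bound by basic helix-loop-helix factors.
Ndel1, chr11:68853136-68853385, minus strand: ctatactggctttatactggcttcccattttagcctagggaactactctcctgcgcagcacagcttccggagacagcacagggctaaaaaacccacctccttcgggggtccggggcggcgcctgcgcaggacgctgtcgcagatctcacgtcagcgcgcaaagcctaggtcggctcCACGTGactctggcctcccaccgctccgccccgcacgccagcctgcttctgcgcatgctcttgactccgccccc
Nde1, chr16:14163025-14163220, plus strand: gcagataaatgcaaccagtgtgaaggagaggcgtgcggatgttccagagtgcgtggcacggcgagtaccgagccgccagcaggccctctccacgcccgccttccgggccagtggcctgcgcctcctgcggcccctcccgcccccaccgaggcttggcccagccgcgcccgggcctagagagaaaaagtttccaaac
Dcx, chrX:143933312-143933469, minus strand: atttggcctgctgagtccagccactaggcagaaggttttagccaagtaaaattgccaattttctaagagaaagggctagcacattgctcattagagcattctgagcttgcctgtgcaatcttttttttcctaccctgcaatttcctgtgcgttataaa
In the full 250 bases, Ndel1 had 1 match to CANNTG and Nde1 and Dcx had 0, where 66.0% of 27025 promoters held at least 1 (the motif reads alike on both strands). GGGCGG or its reverse complement CCGCCC matched 3 times in Ndel1, once in Nde1 and 0 times in Dcx, where 32.9% of promoters held it. The Ndel1 and Nde1 windows held 20 and 24 CpG dinucleotides, and that of Dcx held 3. These matches describe the letters in the windows and are not binding sites.

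Dcx (chromosome X, 143855842 to 143933311, minus strand) encodes doublecortin, a microtubule-binding protein of migrating neurons. It stood at 377 and 420.0 CPM in heterozygous libraries, against 327, 361, 244 and 156 CPM in controls. Both heterozygous libraries were above all controls, and the controls themselves spread more than 2-fold. The means were 398 ± 30.7 CPM in heterozygous (SD, n = 2) and 272 ± 91.6 CPM in control libraries (SD, n = 4), and the log2 fold change was 0.55 ± 0.31 (SE, edgeR unadjusted p = 0.115, adjusted p = 0.907). Within the pair without Y-linked reads the difference was 0.06, and in the other 4 libraries it was 0.86. Without control 4, the lowest library, the log2 fold change was 0.36.

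Libraries also differed in markers of other cells. The 4 microglial markers summed to 4.78 and 0 CPM in heterozygous libraries and to 49.5 CPM in control 4, against 1.45 to 1.67 CPM in controls 1 to 3. Aif1 was at 0 in both heterozygous libraries and in controls 2 and 3, and at 1.28 CPM in control 4. The 4 endothelial markers summed to 7.54 and 7.16 CPM in heterozygous libraries, against 20.99 CPM in control 4 and 4.90 to 10.7 CPM in controls 1 to 3, with Cldn5 at 0 in both heterozygous libraries and in control 2. The 5 erythroid markers summed to 355 CPM in heterozygous library 1 and 0.610 CPM in heterozygous library 2, against 28.8 to 131 CPM in controls. The 9 MGE markers summed to 1489 and 2518 CPM in heterozygous libraries, against 977 CPM in control 4 and 1525 to 1835 CPM in controls 1 to 3. The 12 pan-neuronal markers summed to 930.2 and 1485 CPM in heterozygous libraries, against 1214, 616, 947 and 708 CPM in controls 1 to 4. The neuronal sums overlapped between the groups, 11 of these 12 markers had log2 fold changes above 0 and their median was 0.49, and 0 passed. Of the 9 MGE markers 8 were above 0, with a median of 0.51. Of 11 neural progenitor markers 4 were above 0, with a median of -0.11. Over all tested genes 46.1% were above 0, with a median of -0.03. The part of these markers in the Dcx values was not tested.

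Dclk1 (chromosome 3, 55242364 to 55539068, plus strand) encodes a kinase with the same microtubule-binding doublecortin domains. It stood at 147 and 183 CPM in heterozygous libraries, against 169, 113, 113 and 102 CPM in controls. Control 1 lay between the heterozygous libraries and well above the other 3 controls. The log2 fold change was 0.41 ± 0.23 (SE, edgeR unadjusted p = 0.119, adjusted p = 0.908). Unlike Dcx it differed to a like extent in both library pairings, by 0.37 within the pair without Y-linked reads and by 0.55 in the other 4 libraries, although whether Dcx and Dclk1 differ in this was not tested. Without heterozygous library 2 the log2 fold change of Dclk1 was 0.23.

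Tuba1a (chromosome 15, 98949837 to 98953703, minus strand), the main alpha-tubulin of newborn neurons, was the most abundant of the 10 per kb of exon. It stood at 8840.5 and 7072 CPM in heterozygous libraries, against 5842, 8777, 4505 and 4952 CPM in controls. Control 2 reached the level of heterozygous library 1, and the other 3 controls were below both heterozygous libraries. The log2 fold change was 0.40 ± 0.29 (SE, edgeR adjusted p = 0.96). It was 0.65 without control 2 (adjusted p = 0.181), within a range over the alternatives of 0.24 to 0.65, and 0.01 within the pair without Y-linked reads.

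Alpha-tubulin genes are near-identical, which limits this count. Of the distinct 50-base words of the Tuba1a transcript, 72.9% also occurred in transcripts of other genes, most often Tuba1c, against at most 1.6% for any of the other 9 genes. The ratio of Tuba1a to Tuba1b, an alpha-tubulin made in most tissues, was 6.90 and 7.38 in heterozygous libraries, against 5.48, 5.99, 4.71 and 4.24 in controls. Here the heterozygous libraries lay above all controls. This ratio was also chosen with the levels in view, and no source used here says how shared reads were assigned.

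Ywhae (chromosome 11, 75732869 to 75765845, plus strand), which encodes 14-3-3 epsilon, was nearly level. It stood at 1814 and 1584 CPM in heterozygous libraries, against 1517, 1885, 1547 and 1447 CPM in controls. The highest values were those of heterozygous library 1 and control 2. The log2 fold change was 0.09 ± 0.18 (SE, edgeR adjusted p = 0.999).

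The reelin receptors and their adaptor were detected in every library, and their groups overlapped. Vldlr (chromosome 19, 27216484 to 27254231, plus strand) stood at 14.8 and 19.7 CPM in heterozygous libraries, against 19.5, 14.2, 17.3 and 18.6 CPM in controls. Heterozygous library 1 lay near the lowest control and heterozygous library 2 just above the highest, at a log2 fold change of -0.02 ± 0.21 (SE, edgeR adjusted p = 0.999).

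Lrp8 (chromosome 4, 107802261 to 107876840, plus strand), which encodes the receptor APOER2, stood at 51.8 and 76.3 CPM in heterozygous libraries, against 74.4, 41.9, 75.8 and 59.8 CPM in controls. Heterozygous library 1 was second lowest of the 6 and heterozygous library 2 the highest, and the log2 fold change was 0.02 ± 0.28 (SE, edgeR adjusted p = 0.999). Lrp8 is the immediate protein-coding neighbour of Magoh, ending 2914 bases before it on the same strand. Magoh, the gene targeted in the heterozygous libraries, lay below all controls without passing the test, where 8.14% of all tested genes lay below. The groups of Lrp8 overlapped.

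Dab1 (chromosome 4, 103619359 to 104744844, plus strand), the adaptor phosphorylated on reelin binding, had the fewest reads of the 10, 319 to 708 per library. It stood at 11.1 and 12.4 CPM in heterozygous libraries, against 15.1, 8.88, 14.8 and 15.8 CPM in controls. Control 2 lay below both heterozygous libraries and the other 3 controls above both. The log2 fold change was -0.22 ± 0.27 (SE, edgeR adjusted p = 0.999). It was -0.36 without control 2, -0.13 without heterozygous library 1 and -0.135 without control 4.

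**Figure D2:**
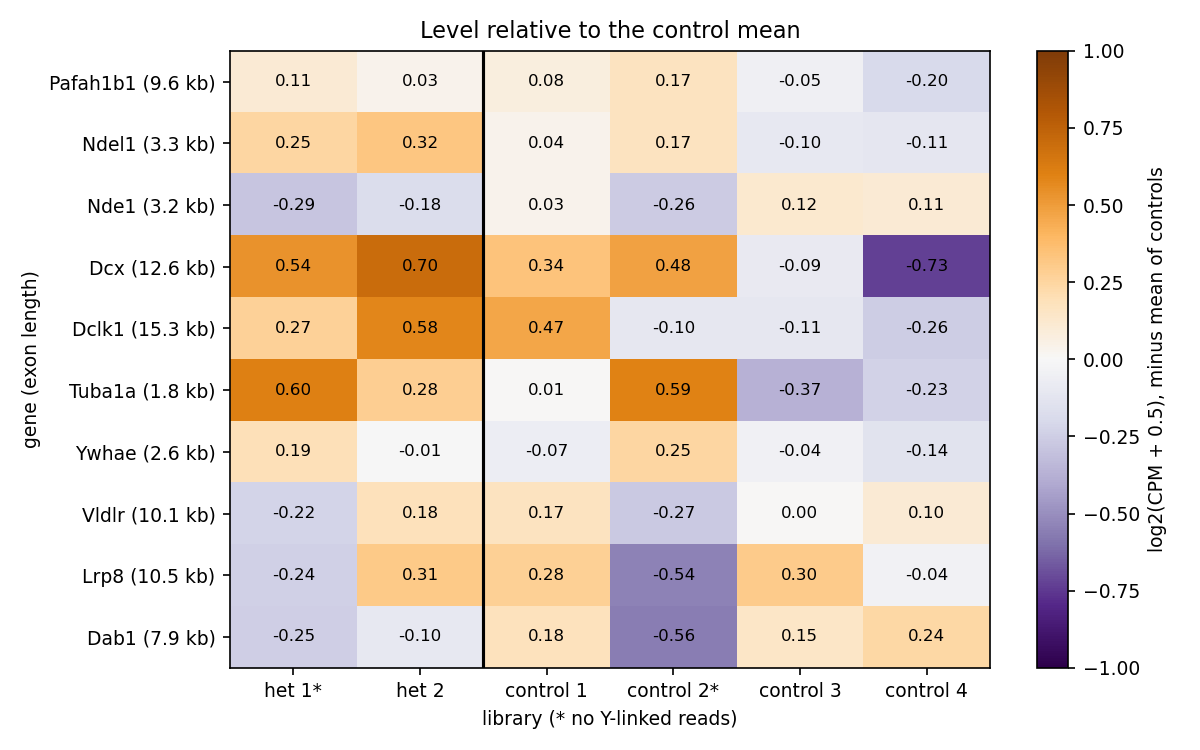
Level of each gene in each library as log2(CPM + 0.5) minus the mean of the 4 controls, with exon length in kb beside the gene and asterisks on the 2 libraries without Y-linked reads. Nde1, Vldlr, Lrp8 and Dab1 are lowest in heterozygous library 1 and control 2, and Pafah1b1, Tuba1a and Ywhae are highest there.

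For most of the 10 genes the libraries separated by the presence of Y-linked reads and not by genotype. In 7 of 10, heterozygous library 1 and control 2 lay outside the range of the other 4 libraries, where this held for 39.1% of all tested genes. Pafah1b1, Tuba1a and Ywhae were highest in these 2 libraries (19.4% of all tested genes), and Nde1, Vldlr, Lrp8 and Dab1 were lowest there (19.8%). The mean difference between these 2 libraries and the other 4 was 0.68 log2 units for Tuba1a, 0.28 for Ywhae and 0.17 for Pafah1b1. It was -0.29 for Nde1, -0.36 for Vldlr, -0.52 for Dab1 and -0.61 for Lrp8. All 3 reelin receptor and adaptor genes, with exon lengths of 7908 to 10514 nt, were low in these libraries. The short Tuba1a and Ywhae (1803 and 2568 nt) were high. Dcx, at 12647 nt, went against this order with a difference of 0.45, although its libraries overlapped, as did Pafah1b1, at 9620 nt, and Nde1, at 3205 nt. Dclk1, at 15296 nt, differed by -0.09, and Ndel1, at 3253 nt, by 0.17.

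When the dependence of each library on exon length and GC was removed by loess, an adjustment that moved the median log2 fold change of all genes to 0.08, against -0.03 before, the count fell to 4 of 10 (Pafah1b1, Tuba1a, Nde1 and Dab1), where it held for 32.2% of all tested genes. Vldlr then stood at 16.3 and 20.5 CPM in heterozygous libraries, against 17.5, 16.9, 14.9 and 17.6 CPM in controls. Lrp8 stood at 60.1 and 76.1 CPM in heterozygous libraries, against 64.3, 54.9, 63.2 and 54.8 CPM in controls. Control 2 was no longer the lowest control for Vldlr, and for Lrp8 it was level with control 4, the lowest. With this adjustment both heterozygous libraries lay above all controls for Ndel1, Dclk1 and Ywhae (3 of 10, against 11.7% of all tested genes) and below all controls for 0 (6.52%). The heterozygous libraries were no longer both above for Dcx, where control 2 (422 CPM) exceeded heterozygous library 1 (413 CPM). The adjusted log2 fold changes were 0.37 with a standard error of 0.17 for Ndel1, 0.57 with 0.25 for Dclk1 and 0.68 with 0.34 for Dcx (edgeR, adjusted p = 0.635, 0.63 and 0.671).

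**Figure D3:**
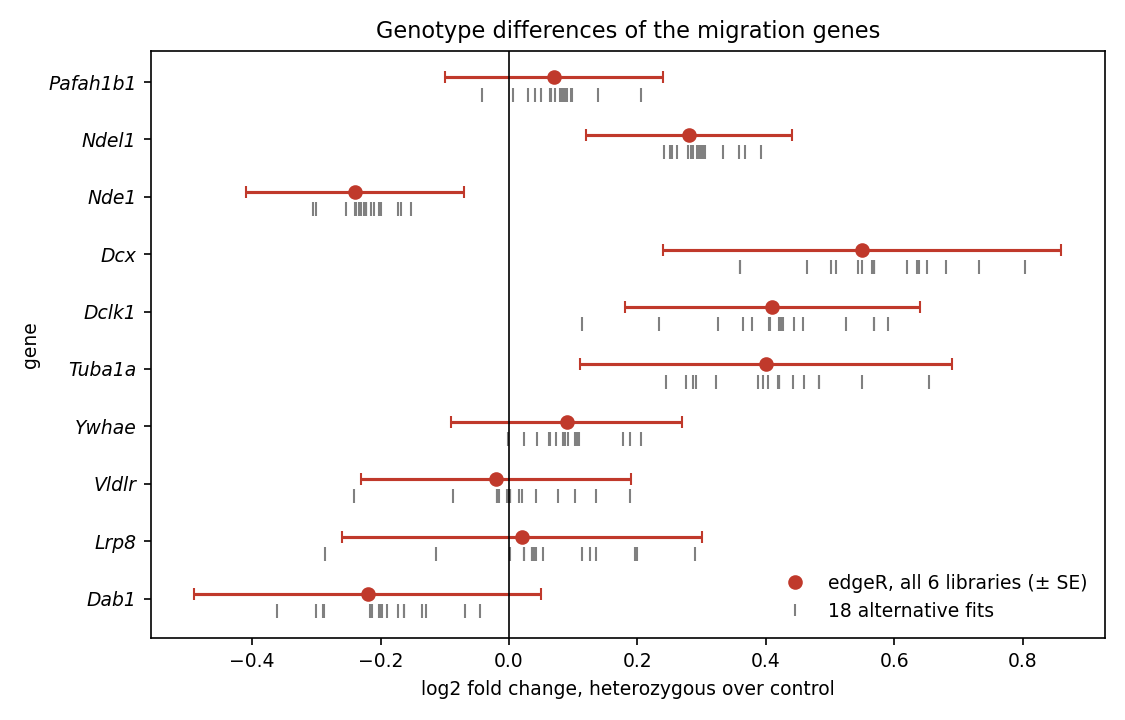
Log2 fold change, heterozygous over control, of each gene. Red points and bars are edgeR estimates from all 6 libraries ± 1 SE, and grey ticks are the 18 alternative fits. Dcx, Dclk1, Tuba1a and Ndel1 stay above 0 in all 18 and Nde1 and Dab1 below 0. Vldlr and Lrp8 lie on both sides, and Pafah1b1 and Ywhae fall below 0 in 1 fit each.

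Levels of different genes were compared per kb of annotated exon. Tuba1a led in control libraries with a mean of 3338 CPM per kb, followed by Ywhae with 623. Nde1, Pafah1b1 and Dcx came next with control means of 35.1, 27.4 and 21.5 CPM per kb. Their ranges over single controls were 29.1 to 37.9 for Nde1, 23.8 to 30.6 for Pafah1b1 and 12.4 to 28.6 for Dcx. Those of neighbours in this order overlapped. Within each control, though, Pafah1b1 stood above Dcx, while Pafah1b1 exceeded Nde1 in control 2 only. Differences between genes were not tested. Ndel1 (9.58), Dclk1 (8.13) and Lrp8 (5.99) followed, also with overlapping neighbours, although Dclk1 stood above Lrp8 within each control. Vldlr and Dab1 were lowest, with control means of 1.730 and 1.729 CPM per kb. In heterozygous libraries the means were 31.5 for Dcx, 29.7 for Nde1 and 28.7 for Pafah1b1. Dcx stood above both in each heterozygous library and below both in each control. In heterozygous libraries 1 and 2 Dcx was at 29.8 and 33.2, Nde1 at 28.6 and 30.8 and Pafah1b1 at 29.4 and 27.9. The control ranges of Nde1 and Dcx did not overlap. Whether this order of genes differs between the groups was not tested. Exon length counts every annotated exon of a gene and understates genes with many unused exons.

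**Figure D4:**
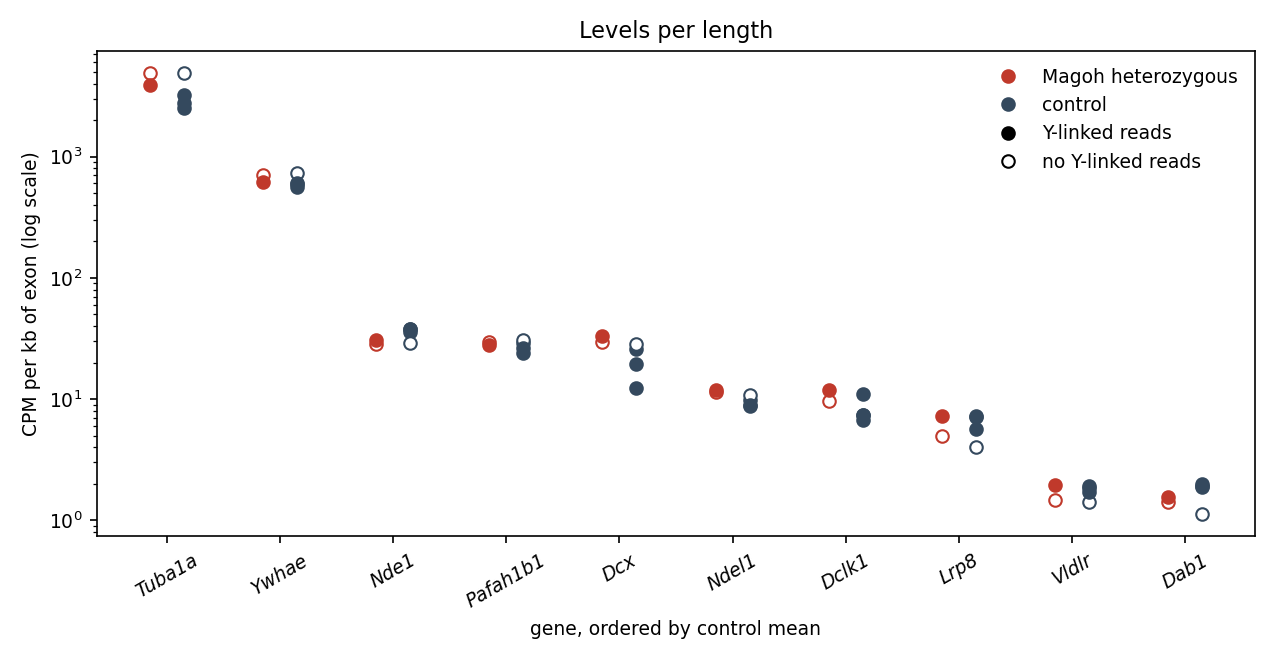
Level of each gene in CPM per kb of annotated exon (log axis), ordered by the control mean. Red points are heterozygous, blue points control and open points the libraries without Y-linked reads. The genes span from about 1 CPM per kb (Dab1 in control 2 at 1.12) to 4903 (Tuba1a in heterozygous library 1).

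The pathway genes around the 10 were read from 6 lists of 106 genes, of which 105 were tested (Tuba8 was not). In these lists 0 genes passed the test and DESeq2 called 0. Among 27 genes of the LIS1 and dynein machinery, 21 had log2 fold changes above 0, against 46.1% of all tested genes. Their median was 0.16 against -0.03 over all tested genes, and 0 had an edgeR unadjusted p under 0.05. The 3 with the smallest p were Cdk5r1, Dync1li1 and Dctn6. Cdk5r1, which activates the kinase CDK5 in neurons, stood at 185 and 273 CPM in heterozygous libraries, against 176, 205, 131 and 85.9 CPM in controls. Control 2 lay between the heterozygous libraries (log2 fold change 0.61, standard error 0.33). Dync1li1, a dynein light intermediate chain, and Dctn6, a dynactin subunit, had log2 fold changes of 0.34 and 0.30 with standard errors of 0.20 each. Single libraries moved these values. Without heterozygous library 2 the log2 fold change was 0.30 for Cdk5r1 and 0.025 for Dync1li1, and without heterozygous library 1 it was 0.60 for Dync1li1 and 0.13 for Dctn6. Dctn6 was 0.46 without heterozygous library 2. The list median was 0.10 without control 3.

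Among 18 doublecortin family and microtubule-associated genes, 15 had log2 fold changes above 0, against 46.1% of all tested genes, and their median was 0.14. In 3 both heterozygous libraries lay above all controls, where this held for 6.17% of all tested genes. The median was 0.39 without heterozygous library 1, 0.08 without heterozygous library 2 and 0.28 without control 1. Stmn2, a microtubule-destabilising protein of growing axons, stood at 239 and 314 CPM in heterozygous libraries, against 202, 181, 173 and 119.6 CPM in controls. Its groups did not overlap (log2 fold change 0.71, standard error 0.23, edgeR unadjusted p = 0.0158, adjusted p = 0.793). Mapre3, a microtubule plus-end protein, also did not overlap, with a log2 fold change of 0.45 ± 0.21 (SE), and Stmn3 had 0.52 with 0.25. Without heterozygous library 2 the log2 fold change of Mapre3 was 0.27.

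Tubulin genes split evenly, with 7 of 14 above 0, against 46.1% of all tested genes. Their median was -0.01, and it was -0.09 without heterozygous library 1, 0.14 without heterozygous library 2 and 0.11 without control 2. Both heterozygous libraries lay above all controls in 2 of the 14 and below all controls in 2. Over all tested genes these shares were 6.17% and 8.14%. Tubb3, the neuronal beta-tubulin, stood at 1884 and 2008 CPM in heterozygous libraries, against 1328, 1555, 994 and 1016 CPM in controls. Both heterozygous libraries lay above all controls (log2 fold change 0.67, standard error 0.22, edgeR unadjusted p = 0.0162, adjusted p = 0.793). Tubb4a, a beta-tubulin of the nervous system, had a log2 fold change of 0.48 ± 0.22 (SE), and Tube1, the epsilon-tubulin of centrioles, one of -0.66 with 0.24. Tubb4a was at 0.25 without heterozygous library 2.

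Among the 6 other 14-3-3 genes 5 were above 0, against 46.1% of all tested genes. Their median was 0.14, and it was 0.09 without heterozygous library 1, control 3 or control 4, and 0.25 without control 2. Ywhag and Ywhab had log2 fold changes of 0.29 and 0.17 with standard errors of 0.18 and 0.16. Without heterozygous library 2 these log2 fold changes were 0.19 and 0.057. Sfn stood at 0 and 1.04 CPM in heterozygous and 0.835 to 1.53 CPM in control libraries, from 0 to 57 reads.

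Reelin itself and its downstream genes showed 14 of 25 above 0, against 46.1% of all tested genes. Their median was 0.10, and it was 0.04 without heterozygous library 2 and 0.17 without control 1. Both heterozygous libraries lay above all controls in 3 of the 25 and below all controls in 1. Over all tested genes these shares were 6.17% and 8.14%. Reln, the ligand, stood at 55.0 and 28.2 CPM in heterozygous libraries, against 61.4, 40.2, 44.9 and 35.8 CPM in controls. Heterozygous library 2 was the lowest of the 6 and heterozygous library 1 the second highest, and the log2 fold change was -0.13 ± 0.31 (SE). Reelin is made by Cajal-Retzius cells, and 7 other markers of these cells summed to 160.2 and 187 CPM in heterozygous libraries, against 157, 90.9, 119 and 134 CPM in controls. Both heterozygous sums were above every control sum, that of heterozygous library 1 only slightly. Of these 7 markers 6 had log2 fold changes above 0, with a median of 0.50, and 0 passed. Over all tested genes 46.1% were above 0, with a median of -0.03. Both heterozygous libraries lay above all controls for 2 of the 7, against 6.17% of all tested genes. Trp73, a defining marker, was low, at 0 and 0.610 CPM in heterozygous and 0.306 to 0.575 CPM in control libraries. The part of these 7 markers in the Reln values was not tested. The integrin Itgb1 stood at 146 and 142 CPM in heterozygous libraries, against 182, 180.2, 192 and 209.9 CPM in controls, without overlap (log2 fold change -0.41, standard error 0.15, edgeR unadjusted p = 0.0295, adjusted p = 0.85). Itga3, its partner, had -0.71 with 0.39, and the actin-regulating kinase Limk1 0.24 with 0.15. Limk1 was at 0.16 without heterozygous library 2.

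Among 15 other lissencephaly and heterotopia genes, 8 were above 0, against 46.1% of all tested genes. Their median was 0.17, and it was -0.09 without heterozygous library 2. Both heterozygous libraries lay above all controls in 1 of the 15 and below all controls in 2. Over all tested genes these shares were 6.17% and 8.14%. Flna encodes filamin A, an actin crosslinker mutated in human periventricular heterotopia. It stood at 444 and 437 CPM in heterozygous libraries, against 738, 546, 793 and 991 CPM in controls. Its groups did not overlap (log2 fold change -0.80, standard error 0.25, edgeR unadjusted p = 0.0117, adjusted p = 0.793). Lamb1, a basement membrane laminin chain, had -1.24 with a standard error of 0.51, but its groups overlapped. Heterozygous library 1 was the lowest library, and control 2 (8.21 CPM) lay below heterozygous library 2 (10.8 CPM). Controls 1, 3 and 4 stood at 18.2, 26.1 and 31.6 CPM. The log2 difference of Lamb1 was -0.22 between heterozygous library 1 and control 2, and -1.16 between heterozygous library 2 and controls 1, 3 and 4. Mesenchymal markers summed to 159 and 60.7 CPM in heterozygous and 89.2 to 166 CPM in control libraries, and their part in the Flna and Lamb1 values was not tested.

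**Figure D5:**
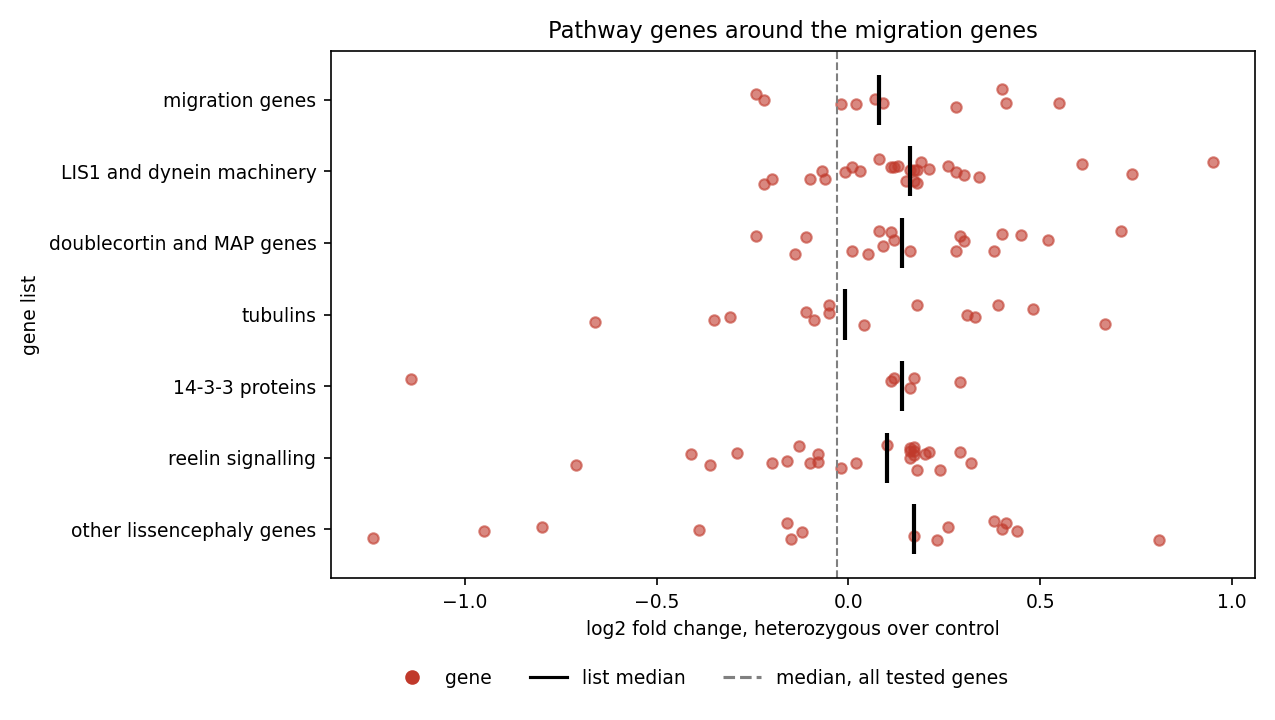
Log2 fold change, heterozygous over control, of the 10 migration genes and of the tested genes in the 6 pathway lists. Each point is a gene, black bars are list medians (0.08 for the migration genes and -0.01 to 0.17 for the lists) and the dashed line is the median of all tested genes (-0.03).

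The genes whose levels followed Dcx most closely over the 6 libraries were Cd200, RP23-396N6.8, Ttc9b, Rgs17 and Tmem255a, chosen among 13122 genes averaging 1 CPM or more by the root mean square difference of centred log2 CPM, which was 0.084 to 0.099. Cd200, for example, stood at 17.6 and 19.2 CPM in heterozygous libraries, against 16.8, 18.6, 12.5 and 8.1 CPM in controls. Of the other migration genes, Tuba1a (0.32, rank 471), Dclk1 (0.33, rank 560) and Ndel1 (0.35, rank 755) came nearest to Dcx, and Dab1 (0.70, rank 10288) was the farthest.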

How the data were processed

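RNA was sequenced from 6 libraries. Per the labels' protocols, sorted cells were lysed in RLT buffer, RNA was taken up with an RNAeasy kit, and a NuGEN mRNA kit was used without its AnyDeplete step. Tools named in the submitters' processing notes are Trim Galore, STAR and HTSeq, with build mm10. The sources used here give no annotation, strandedness or tool version. The authors deposited raw read counts for 38561 genes, and a normalized signal for 18065 genes whose ratio to the raw counts was constant within each library.

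The 16495 genes kept by filterByExpr were fitted with edgeR 4.0.16 in R 4.3.3 (TMM, glmQLFit with robust fitting, two-sided glmQLFTest). P-values were adjusted by Benjamini-Hochberg over all of them, at a threshold of 0.05. SE is the size of the log2 fold change over the root of the F statistic. Alternatives were DESeq2 1.42.0, limma-voom and limma-trend (limma 3.58.1, on log2 of the deposited signal plus 1), RLE and upper-quartile scaling, other count filters, Y-linked reads as a covariate, a block on the sample code number, loess removal of length and GC dependence (span 0.5), and leaving out libraries. Coordinates, exon length and GC came from GENCODE M21 (GRCm38), with length and GC for 98.6% of tested genes. Promoters came from RefSeq (GRCm38.p6) and matched all 10 genes. No pair of libraries agreed within sampling noise (median chi-square per gene 4.86 to 21.3, against 0.455 for Poisson counts). An exact permutation test of 2 against 4 libraries cannot give a p below 0.0667. Scripts were tested on simulated data of 15879 genes, where edgeR made 11 false calls and DESeq2 made 59.

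The genes and lists were chosen with earlier results of these data known. Named genes are the 10, Magoh, Reln, Nkx2-1 and the 3 of each list with the smallest p. A gene that this rule names is not reported here.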

Additional observations from a re-analysis of the deposited data

Results flagged for a closer look

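Chance flags about 1 in 20 groups of 4 as holding a library far from the others. Among the controls, Dclk1 in control 1 (169 CPM) stood far above the other 3 (102 to 113 CPM). Dab1 in control 2 (8.88 CPM) stood far below the other 3 (14.8 to 15.8 CPM). Tubb4a in control 1 (255 CPM) stood far above the other 3 (175 to 179 CPM).

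For several genes the genotype difference had opposite signs in the libraries without Y-linked reads (heterozygous library 1 against control 2) and in those with them (heterozygous library 2 against controls 1, 3 and 4), and the difference between these was not tested. The log2 difference was 0.31 and -0.29 for Dab1, 0.45 and -0.71 for Reln, and 0.20 and -0.78 for Itga3. It was -0.06 and 0.08 for Ywhae, -0.06 and 0.09 for Pafah1b1, -0.11 and 0.08 for Nkx2-1, and -0.15 and 1.11 for Cdk5r1.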

How the results depend on the processing

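Over all tested genes 0 passed with edgeR, 75 passed with DESeq2 and 11 with a replicate block on the sample code number, which the labels do not define and which only control 1 and heterozygous library 2 share across genotypes. With the block, as with every other alternative run, 0 of the 10 migration genes and 0 list genes passed. For 31 named genes, 25 kept the sign of the log2 fold change in every alternative with a test. The exceptions follow. Pafah1b1 was -0.042 with the replicate block, and Ywhae -0.001 without heterozygous library 1. Vldlr was 0.001 with DESeq2, 0.001 with RLE scaling, 0.002 with a mean of at least 1 CPM, 0.015 with the block, 0.076 with Y-linked reads as a covariate, 0.14 with length and GC trends removed, 0.10 with only libraries that have Y-linked reads, and -0.24 to 0.19 on leaving out single libraries. Lrp8 ran from -0.29 to 0.29 and Reln from -0.682 to 0.265 on leaving out single libraries, and Reln was 0.16 with length and GC trends removed. Nkx2-1 was 0.036 with the block, 0.056 with only libraries that have Y-linked reads, and -0.316 to 0.12 on leaving out single libraries.

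The counts of genes outside the control range were re-run under settings chosen after seeing the data. Leaving out single libraries gave 2 to 5 genes above all controls, where 7.41% to 19.9% of all tested genes lay above, and 0 to 2 below, where 9.72% to 23.4% lay below. Upper-quartile scaling gave 1 below, against 8.16% of all tested genes. Removing length and GC trends reduced the genes that separate by Y-linked reads to 4 of 10, against 32.2% of all tested genes. The lowest read count of the 10 genes was 319, for Dab1 in control 2.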
